A study of Mus musculus with 18 samples.

Results

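Splenocyte RNA was compared between mice that were immunized with LPPC/MP and then modulated with LPPC/MP/CD28 (CD28, 6 libraries) and mice that received LPPC/MP alone (LM, 3 libraries). These 9 libraries were chosen by their labelled treatment from the 18 of the series, which also holds 6 libraries after LPPC/MP/CTLA4 and 3 from naive mice. The LPPC carrier is a liposomal polymer of PEG and PEI with proteins adsorbed to its surface, MP stands for the membrane proteins of antigen-pulsed dendritic cells, and the CD28 complexes also carry an antibody to mouse CD28. All mice are labelled female C57BL/6J, and the attached protocol gives an age of 4 to 6 weeks when obtained. The study's methods give a higher age range for the purchased mice. Both groups had the same immunization and boost with LPPC/MP. The CD28 spleens were taken in later weeks than the LM spleens, after 1 or 2 further doses that the labels do not tell apart, and no mice received LPPC/MP without antibody as those further doses. The antibody, the further dosing and the week therefore cannot be told apart in this comparison. No source states that the libraries came from separate animals, so p-values measure the spread between libraries.

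The 9 libraries held 5.99 to 7.59 gigabases of aligned sequence in CD28 and 6.59 to 7.43 in LM, and their pairwise correlations across genes were 0.9886 to 0.9938 within CD28, 0.9913 to 0.9935 within LM and 0.981 to 0.993 between the groups. The labelled cell type, splenocytes, was set against defining markers. The T cell marker Cd3e was present but low, at 6.93 to 11.5 FPKM in CD28 and 12.6 to 15.6 FPKM in LM. Transcripts of macrophages were far higher, with Lyz2 (lysozyme) at 1394 to 1491 FPKM in CD28 and 1386 to 1441 FPKM in LM, and Spp1 (osteopontin, singled out after its values were seen) at 6235 to 6966 FPKM in CD28 and 6178 to 6642 FPKM in LM. The Y-linked gene Eif2s3y was present in every library, at 34.5 to 36.8 FPKM in CD28 and 31 to 36.1 FPKM in LM, which goes against the label of female mice, and Xist stood at 4.84 to 7.2 FPKM in CD28 and 4.98 to 6.69 FPKM in LM. The libraries are called here by their labels. CD28 1 and CD28 4 stood apart from the other CD28 libraries in genes of splenic stroma, which were near 0 in both, and counts of called genes that rest on them are also given without them.

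CD28 is the costimulatory receptor that gives T cells a second signal beside the antigen receptor, and it competes with the inhibitory receptor CTLA4 for the ligands CD80 and CD86. The spleen also holds red pulp, where erythrocytes, platelets and macrophages reside, a store of neutrophils and monocytes, and stromal cells that guide lymphocytes with chemokines. Neutrophils pack their granules in sequence while they mature. Primary granules, with myeloperoxidase and serine proteases, form in promyelocytes, secondary and tertiary granules, with lactoferrin, cathelicidin and gelatinase, form later, and transcripts of granule proteins are therefore most abundant in immature granulocytes.

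Most of the genes with the largest changes belonged to granules, red cells and platelets. Upstream windows of 6 called genes (3 of granules, 2 of red cells and the interferon-stimulated gene Rsad2) are shown because each holds letters of a factor known for such genes. C/EBP factors drive granule genes in maturing neutrophils, GATA1 drives erythroid and megakaryocytic genes, and interferon-stimulated genes carry a response element for IRF and STAT factors. Each line gives the 250 bases before the RefSeq start of the gene (GRCm38.p6), 5′ to 3′ on the strand of the gene, with the match in capitals. The letters searched on both strands were TTNNGCAA for C/EBP, AGATAA for GATA and GAAANNGAA for the interferon response element, and matches of different motifs shared no base in these windows.
Ngp (chr9:110419558-110419807, plus strand): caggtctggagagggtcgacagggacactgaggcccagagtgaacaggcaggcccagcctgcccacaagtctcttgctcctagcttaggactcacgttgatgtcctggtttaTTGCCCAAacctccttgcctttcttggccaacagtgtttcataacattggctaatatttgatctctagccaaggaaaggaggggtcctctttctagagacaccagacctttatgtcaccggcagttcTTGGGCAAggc
Ltf (chr9:111019042-111019291, plus strand): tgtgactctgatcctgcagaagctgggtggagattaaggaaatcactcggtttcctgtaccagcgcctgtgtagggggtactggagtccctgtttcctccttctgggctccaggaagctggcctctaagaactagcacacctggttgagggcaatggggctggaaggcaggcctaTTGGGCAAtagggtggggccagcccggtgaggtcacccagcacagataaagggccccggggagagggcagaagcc
Fcnb (chr2:28084879-28085128, minus strand): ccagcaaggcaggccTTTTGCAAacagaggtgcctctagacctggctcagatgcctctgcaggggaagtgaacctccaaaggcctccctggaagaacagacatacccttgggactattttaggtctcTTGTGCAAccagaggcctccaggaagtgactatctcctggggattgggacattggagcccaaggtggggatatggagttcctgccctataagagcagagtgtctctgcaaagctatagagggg
Alas2 (chrX:150547167-150547416, plus strand): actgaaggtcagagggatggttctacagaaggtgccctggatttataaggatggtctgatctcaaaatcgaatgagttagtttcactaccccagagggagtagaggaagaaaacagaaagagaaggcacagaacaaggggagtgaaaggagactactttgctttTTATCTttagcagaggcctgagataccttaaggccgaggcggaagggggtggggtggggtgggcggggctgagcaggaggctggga
Hbb-bs (chr7:103827929-103828178, minus strand): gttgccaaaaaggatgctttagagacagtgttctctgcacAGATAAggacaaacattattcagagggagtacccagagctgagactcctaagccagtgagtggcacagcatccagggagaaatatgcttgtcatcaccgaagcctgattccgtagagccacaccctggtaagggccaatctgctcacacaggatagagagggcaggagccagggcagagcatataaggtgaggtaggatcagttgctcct
Rsad2 (chr12:26456453-26456702, minus strand): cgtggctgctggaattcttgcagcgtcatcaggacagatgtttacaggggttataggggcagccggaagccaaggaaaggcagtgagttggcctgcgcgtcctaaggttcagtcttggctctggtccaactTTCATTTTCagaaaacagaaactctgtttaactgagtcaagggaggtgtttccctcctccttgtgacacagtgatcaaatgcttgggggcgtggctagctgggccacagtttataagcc

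The C/EBP letters are in capitals in the Ngp, Ltf and Fcnb windows, with starts 138 and 11, 75, and 235 and 123 bases before the RefSeq start. Among the 14 granule and neutrophil genes called higher in CD28, 12 had a RefSeq window and 6 of these held TTNNGCAA (Fcnb, Ltf, Mmp8, Ngp, Retnlg and S100a9), against 783 of 8531 tested genes with a window (9.18%). Of the 5 erythroid genes called lower, 1 held them (Hbb-bs). The GATA letters, in capitals in Alas2 and Hbb-bs, were in these 2 of the 5 erythroid genes and in 2 of the 12 granule and neutrophil genes (Ltf and S100a9), against 614 of the 8531 (7.20%). The interferon letters, in capitals in Rsad2, were also in 2 of the 5 erythroid genes (Alas2 and Hbb-bt) and in 0 of the 12 granule and neutrophil genes, against 666 of the 8531 (7.81%). The erythroid genes thus held the GATA and the interferon letters equally often. These gene groups rest on calls that were lost without CD28 1 and CD28 4. A match is a description of the window and no evidence of binding.

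In all, 50 of 11120 protein-coding genes (0.45%) were called in CD28 against LM, at an adjusted p under 0.05 in limma on log2(FPKM + 0.5). FPKM scales fragments by gene length and library size, so levels can be set side by side between genes. Of the 50, 20 (0.18% of all tested) were higher in CD28 and 30 (0.27%) were lower, and in each of them the CD28 and LM libraries did not overlap. Across all tested genes, CD28 and LM did not overlap in 278 higher genes (2.5%) and 422 lower genes (3.79%). An unadjusted p under 0.05 was seen in 1248 genes, 476 higher and 772 lower. These are the background for the counts at an unadjusted p given by list. Over the tested genes the median log2 fold change was -0.002. The rises were small, between 0.26 and 0.83 on the log2 scale, and 18 of the 30 falls were over 2-fold. The balance of rises and falls depended on scaling, since 48 of 75 calls (64.0%) were higher after scaling to equal sums and 44 of 87 (50.6%) after quantile normalization, against 20 of 50 as deposited. The count of calls rested on single libraries. It was 0 without CD28 1 and CD28 4 together, with 920 genes at an unadjusted p under 0.05, and with 1 library left out it was 1 without CD28 4, 3 without CD28 5, 4 without LM 3, 8 without LM 2, 17 without CD28 1 or LM 1, 31 without CD28 3 and 119 without CD28 2. For this reason the levels of single libraries are given beside the tests.

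Genes of secondary and tertiary neutrophil granules were higher in CD28. Of 15 tested members of the list, 11 rose, 0 fell and 4 were not called (0.18% of all genes rose), and the list had a median log2 fold change of 0.63. Retnlg, a resistin-like secreted protein of neutrophils, had the largest rise, with 38, 47.5 and 56.1 FPKM in CD28 (lowest, median and highest of 6) and 25.9, 29 and 24.7 FPKM in LM (log2 fold change 0.83, standard error 0.12, limma adjusted p = 0.0223). Ltf (ENSMUSG00000032496, chromosome 9 from 111019271 to 111042767 of mm10), the iron-binding lactoferrin of secondary granules, stood at 81.7, 99.7 and 114 FPKM in CD28 and 57.2, 68.9 and 57.5 FPKM in LM (log2 fold change 0.68, standard error 0.11, limma adjusted p = 0.036). Every CD28 library was above every LM library for both genes, and CD28 2 and CD28 6 were the lowest of the CD28 libraries. Ngp (ENSMUSG00000032484, chromosome 9 from 110419747 to 110423012 of mm10), the neutrophilic granule protein, was the most abundant of the called members of this list and measured 387, 473 and 537 FPKM in CD28 and 279, 329 and 275 FPKM in LM (log2 fold change 0.66, standard error 0.11, limma adjusted p = 0.0365). Camp, the cathelicidin precursor, measured 78.5, 92.7 and 101 FPKM in CD28 and 56.6, 67.1 and 60.9 FPKM in LM (log2 fold change 0.55, standard error 0.092, limma adjusted p = 0.0365). The matrix metalloproteinases of tertiary and secondary granules also rose. Mmp9 (gelatinase B) measured 8.43, 10.1 and 11.2 FPKM in CD28 and 6.62, 6.69 and 5.79 FPKM in LM, a log2 fold change of 0.59, and Mmp8 (collagenase) 7.74, 8.45 and 9.82 FPKM in CD28 and 5.11, 5.93 and 4 FPKM in LM, a log2 fold change of 0.73.

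**Figure D1:**
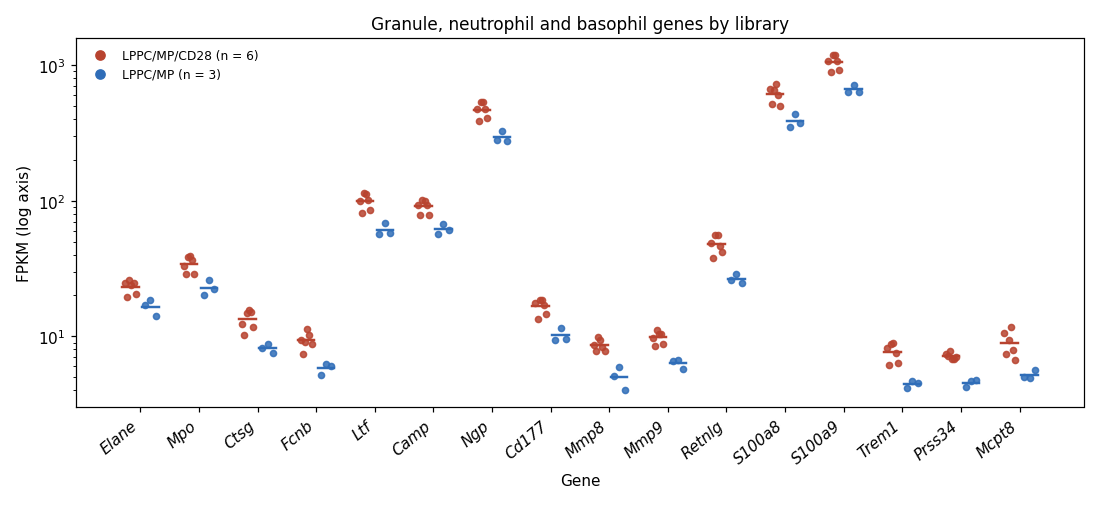
FPKM of 16 granule, neutrophil and basophil genes in each library on a log axis, with CD28 in red left of LM in blue and a line at each group mean. All 6 CD28 libraries lie above all 3 LM libraries for each gene shown, Elane with its lowest CD28 library at 19.4 FPKM and its highest LM library at 18.5 FPKM included. List members whose groups overlapped, such as Lcn2, are not drawn. Higher without overlap were 12 of 15 tested secondary and tertiary granule, 7 of 9 primary granule, 9 of 15 mature neutrophil and 4 of 6 basophil genes.

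The other members of this list that rose were AA467197, Cd177 (a surface protein of neutrophils), Olfm4 (olfactomedin 4), Chil1 (a chitinase-like protein) and Hp (haptoglobin), with log2 fold changes between 0.56 and 0.74. Chil3 stood at 15.7, 19.6 and 23.5 FPKM in CD28 and 13.1, 12.2 and 12.4 FPKM in LM and just missed the threshold (adjusted p = 0.0577). Lcn2, the siderophore-binding lipocalin, ranged from 112 to 207 FPKM in CD28 and from 86 to 118 FPKM in LM, so that the groups overlapped. Lyz2, which macrophages also express, stood at 1456 ± 35.9 FPKM (SD, n = 6) in CD28 and 1417 ± 28 FPKM (SD, n = 3) in LM, with a 95% interval of -0.025 to 0.10 for its log2 fold change.

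Primary granule genes had the same direction. Of 9 tested members, 1 rose (0.18% of all genes rose), 0 fell and 8 were not called, with a median of 0.56. The number that rose was 4 after scaling to equal sums, 3 after quantile normalization, 6 without CD28 2, and 0 with a pseudocount of 0.1 or 1 or without any other single library. Fcnb (ENSMUSG00000026835, chromosome 2 from 28076378 to 28084885 of mm10), a ficolin of granulocyte precursors, rose, with 7.4, 9.23 and 11.3 FPKM in CD28 and 5.23, 6.27 and 6.06 FPKM in LM (log2 fold change 0.63, standard error 0.11, limma adjusted p = 0.0495). Its adjusted p was the highest among the called genes, and Ms4a3, a marker of granulocyte and monocyte precursors, shared the lowest adjusted p outside it with Ccdc107 and Hdc and had 5.17, 6.82 and 7.66 FPKM in CD28 and 4.17, 4.47 and 3.37 FPKM in LM (log2 fold change 0.65, standard error 0.12, limma adjusted p = 0.0508). Mpo (myeloperoxidase) stood at 28.6, 34.7 and 38.9 FPKM in CD28 and 20.2, 25.9 and 22.4 FPKM in LM (adjusted p = 0.0758). The serine proteases Elane (neutrophil elastase), Ctsg (cathepsin G) and Prtn3 (proteinase 3) had log2 fold changes of 0.47, 0.66 and 0.37, with adjusted p between 0.0577 and 0.0969. CD28 and LM did not overlap in 7 of the 9 members, all higher in CD28 (2.5% of all genes were higher without overlap).

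Among genes of mature neutrophils, 2 of 15 tested members rose (0.18% of all genes rose), 0 fell and 13 were not called. The median was 0.43. The number that rose was 5 after scaling to equal sums or quantile normalization, 6 without CD28 2, 4 without CD28 6, 1 without CD28 3 and 0 without any other single library. S100a9, a subunit of calprotectin, measured 889, 1069 and 1192 FPKM in CD28 and 637, 715 and 629 FPKM in LM (log2 fold change 0.67, standard error 0.096, limma adjusted p = 0.023). Its partner S100a8 measured 502, 627 and 722 FPKM in CD28 and 349.7, 434 and 375 FPKM in LM and missed the threshold (adjusted p = 0.0523). Trem1, a receptor that amplifies inflammatory signals in neutrophils and monocytes, rose, with 6.13, 7.81 and 8.98 FPKM in CD28 and 4.16, 4.71 and 4.52 FPKM in LM (log2 fold change 0.70, standard error 0.12, limma adjusted p = 0.0365). The receptors Csf3r (for G-CSF), Cxcr2 (for CXCL1 and CXCL2) and Fpr1 (for formyl peptides) had log2 fold changes of 0.43, 0.31 and 0.41 and were not called. Clec4d and Clec4e, lectin receptors that macrophages share, had log2 fold changes of 0.072 and 0.027. In these bulk libraries, more cells of a type and more RNA per cell cannot be told apart. With 1 library left out, the called members of the secondary and tertiary list numbered 0 without CD28 4, CD28 5, LM 1 or LM 3, 1 without CD28 1 or LM 2, 5 without CD28 3, 11 without CD28 6 and 12 without CD28 2. Without CD28 1 and CD28 4 together, none of the 14 genes of the 3 lists was called, and the list medians were 0.59 for secondary and tertiary granules, 0.52 for primary granules and 0.39 for mature neutrophils.

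Of the basophil and mast cell genes, 1 rose (0.18% of all genes rose), 0 fell and 5 were not called among 6 tested. The median was 0.52. Prss34 (ENSMUSG00000056399, chromosome 17 from 25298394 to 25300161 of mm10), the basophil serine protease mMCP-11, had the lowest adjusted p of all genes. It was at 7.42, 7.19, 7.76, 6.82, 6.78 and 7.05 FPKM in CD28 1 to 6, against 4.21, 4.72 and 4.75 FPKM in LM (log2 fold change 0.60, standard error 0.057, limma adjusted p = 0.0106). Mcpt8, another basophil protease, measured 6.75, 8.7 and 11.6 FPKM in CD28 and 5.04, 4.92 and 5.6 FPKM in LM, and Fcer1a, a chain of the high-affinity IgE receptor, 0.56, 0.783 and 1.07 FPKM in CD28 and 0.228, 0.448 and 0.365 FPKM in LM, and neither was called (adjusted p = 0.0845 and 0.111). Cpa3 (mast cell carboxypeptidase) and Kit, the stem cell factor receptor, had log2 fold changes of 0.44 and -0.077 and were not called. Prss34 was not called without CD28 1 and CD28 4 (log2 fold change 0.61, adjusted p = 0.0707).

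The study named a set of genes for LM against mice given 2 doses of LPPC/MP/CD28, while the 6 CD28 libraries here had 1 or 2 doses, so the groups are not those of the study. The study listed most of the set as upregulated and N4bp1, Erap1, Det1, Btbd3 and Smurf2 as downregulated, and both parts are pooled here. The study set its threshold at a p under 0.05 and describes no adjustment, so the adjusted calls here are stricter. Of the 37 tested members of the set, 9 rose (0.18% of all genes rose), 0 fell and 28 were not called, with a median of 0.31. At an unadjusted p under 0.05 in limma, 25 of the 37 were higher and 0 lower. Of all 11120 genes, 476 were higher and 772 lower at that p. CD28 and LM did not overlap in 20 members, all higher in CD28 (2.5% of all genes were). Log2 fold changes were positive in 34 members and negative in 3. As both parts are pooled, these counts do not give how many members followed the listed direction. In the study's own values, N4bp1 and Erap1, listed as downregulated, were higher after 2 doses of LPPC/MP/CD28. Il18, listed as upregulated, was lower. The study chose this set on these libraries, so the directions are not independent evidence. The number that rose was 14 after scaling to equal sums, 16 after quantile normalization and 0 without CD28 1 and CD28 4, with a median of 0.26. With 1 library left out it was 16 without CD28 2, 8 without CD28 6, 4 without CD28 3, 2 without CD28 1 or LM 2 and 1 otherwise. The 9 were Prss34 and 8 genes of the granule and neutrophil lists. Among the 28 were the inflammatory genes Il6, with 0.757, 1.21 and 1.46 FPKM in CD28 and 0.396, 0.807 and 0.513 FPKM in LM (adjusted p = 0.197), Cxcl2, with 16.3, 18.5 and 19.4 FPKM in CD28 and 13.2, 14 and 16.1 FPKM in LM (adjusted p = 0.0722), and Arg1 (arginase 1), with 0.658, 0.848 and 0.957 FPKM in CD28 and 0.457, 0.506 and 0.556 FPKM in LM (adjusted p = 0.105). Anxa1 (annexin A1) and Irf7, the interferon regulatory factor, had log2 fold changes of 0.22 and 0.31 with no overlap between the groups, and adjusted p of 0.0636 and 0.0577. Cd44, Cebpb and Gab2 had log2 fold changes of 0.038, 0.051 and 0.034, all within an interval that includes 0.

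Globin and heme genes of red cells fell in CD28. Of 10 tested members of the erythroid list, 5 fell (0.27% of all genes fell), 0 rose and 5 were not called, with a median of -0.85. The hemoglobin genes were among those that fell. Hbb-bs (ENSMUSG00000052305, chromosome 7 from 103826534 to 103828096 of mm10), an adult beta-globin, was at 443, 517 and 765 FPKM in CD28 and 1425, 1978 and 1427 FPKM in LM (log2 fold change -1.54, standard error 0.19, limma adjusted p = 0.0223). Hba-a1, an alpha-globin, was at 360.1, 488 and 741 FPKM in CD28 and 1404, 2153 and 1566 FPKM in LM (log2 fold change -1.72, standard error 0.23, limma adjusted p = 0.0223). Hba-a2 and Hbb-bt, near-identical copies of these genes whose reads may have been divided between copies, had log2 fold changes of -1.74 and -1.52. Alas2 (ENSMUSG00000025270, chromosome X from 150547375 to 150570638 of mm10), the first enzyme of heme synthesis in red cells, was at 9.03, 10.9 and 13.5 FPKM in CD28 and 21.7, 30.2 and 24 FPKM in LM (log2 fold change -1.16, standard error 0.14, limma adjusted p = 0.0223).

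Every LM library was above every CD28 library for these 5 genes, with LM 2 highest, and CD28 1 and CD28 4 were among the 3 lowest of the CD28 libraries for each. Car2 (carbonic anhydrase 2) had a log2 fold change of -0.37 and was not called, nor were Klf1 and Epor, the erythroid factor and the erythropoietin receptor, at -0.37 and -0.096. Bpgm, which makes 2,3-bisphosphoglycerate in red cells, was also called lower, with 4.36, 5.25 and 7.56 FPKM in CD28 and 9.44, 13.6 and 11 FPKM in LM (log2 fold change -0.98, standard error 0.15, limma adjusted p = 0.0339). Summed over the list, the erythroid genes held 1403 to 2683 FPKM in the CD28 libraries, against 4795 to 7135 FPKM in the LM libraries.

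**Figure D2:**
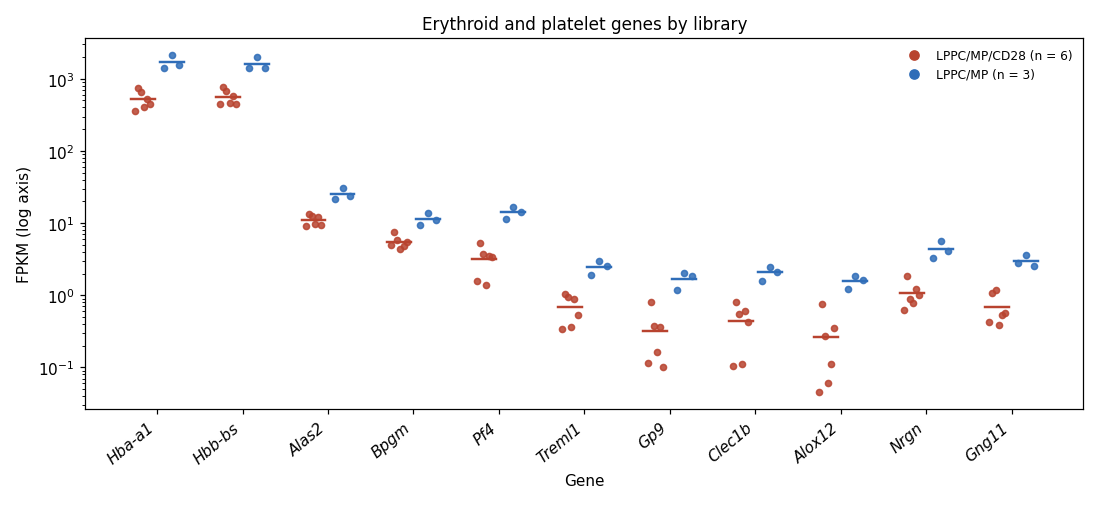
FPKM of 11 erythroid and platelet genes in each library on a log axis, with CD28 in red left of LM in blue and a line at each group mean. All CD28 libraries lie below all LM libraries for each gene shown, while 7 of the 10 tested members of the erythroid list were lower without overlap. The platelet genes Gp9, Clec1b and Alox12 spread widely among the CD28 libraries, from 0.0455 to 0.749 FPKM in Alox12.

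Several platelet genes fell in CD28. Of 7 tested members of the megakaryocyte and platelet list, 3 fell (0.27% of all genes fell), 0 rose and 4 were not called. The median was -1.35. Pf4 (ENSMUSG00000029373, chromosome 5 from 90772435 to 90773383 of mm10), the platelet chemokine CXCL4, had the largest called fall, with 1.37, 3.46 and 5.31 FPKM in CD28 and 11.3, 16.8 and 14.1 FPKM in LM (log2 fold change -2.09, standard error 0.33, limma adjusted p = 0.036). Treml1, a receptor of platelet granules, was at 0.34, 0.715 and 1.03 FPKM in CD28 and 1.91, 2.95 and 2.53 FPKM in LM (log2 fold change -1.35, standard error 0.22, limma adjusted p = 0.036), and Gp9, a subunit of the von Willebrand factor receptor, at 0.0999, 0.267 and 0.805 FPKM in CD28 and 1.18, 2.06 and 1.85 FPKM in LM (log2 fold change -1.45, standard error 0.25, limma adjusted p = 0.0397). CD28 1 and CD28 4 were the lowest 2 libraries for Pf4, at 1.55 and 1.37 FPKM. Ppbp, which encodes another platelet chemokine, had a larger fold but was not called, with 0.306, 2.68 and 6.19 FPKM in CD28 and 15.7, 23 and 18 FPKM in LM (log2 fold change -2.91, standard error 0.66, limma adjusted p = 0.103). The integrin genes Itga2b and Itgb3, whose products form the fibrinogen receptor, had log2 fold changes of -1.15 and -0.69 and adjusted p of 0.0652 and 0.0555.

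Other called genes that platelets express were Clec1b (the podoplanin receptor CLEC-2), Alox12 (platelet 12-lipoxygenase), Nrgn (neurogranin) and Gng11 (a G protein gamma subunit), with log2 fold changes of -1.50, -1.50, -1.65 and -1.58. Gata1, the factor of both lineages (singled out after its values were seen), measured 0.593, 0.698 and 1.17 FPKM in CD28 and 1.35, 2.27 and 1.5 FPKM in LM and was not called (adjusted p = 0.0722). With 1 library left out, the called erythroid genes numbered 0 without CD28 4, CD28 5, LM 2 or LM 3, 4 without CD28 1 or LM 1 and 5 otherwise. The called platelet genes numbered 5 without CD28 2, 1 without CD28 3 or CD28 6 and 0 otherwise. Without CD28 1 and CD28 4 together, no member of the erythroid or platelet list was called, and the medians were -0.73 for the erythroid and -1.13 for the platelet list.

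Genes of splenic stroma varied widely among the CD28 libraries. None of 7 tested members of the stroma and endothelium list was called in limma (6 had an unadjusted p under 0.05, all lower in CD28), although their median was -2.03. Cxcl12, a chemokine of reticular cells, was at 0.0445 and 0.0885 FPKM in CD28 1 and CD28 4 and at 1.32 to 4.98 FPKM in the other CD28 libraries, against 7.32, 9.67 and 7.56 FPKM in LM (log2 fold change -2.35, standard error 0.68, limma adjusted p = 0.198). Ccl19, the CCR7 ligand of T zone stroma, was listed at 0 in CD28 1 and CD28 4 and was at 0.949 to 3.33 FPKM in the other CD28 libraries, against 3.69, 6.4 and 5.13 FPKM in LM. Cxcl13, the B zone chemokine of follicular stroma, was at 0.209 and 0.124 FPKM in CD28 1 and CD28 4 and at 6.29 to 15.6 FPKM in the other CD28 libraries, against 16.8, 28 and 18.2 FPKM in LM. Summed over the list of 12 genes, stroma held 3.95 and 5.41 FPKM in CD28 1 and CD28 4 and 21.2 to 48.2 FPKM in the other CD28 libraries, against 57.5 to 91.0 FPKM in the LM libraries. Of the 12 genes, 7 in CD28 1 and 6 in CD28 4 were under 0.05 FPKM, and 2 in each were listed at 0. All CD28 libraries were thus below all LM libraries in the sum, and CD28 1 and CD28 4 were lowest. Without them the median was -1.13, and again none was called. The lymph node chemokine copies Ccl21b and Gm21541 were called lower, with log2 fold changes of -1.37 and -1.45, but reads of near-identical Ccl21 copies may have been divided between them, and both stood at 0 in CD28 1 and CD28 4.

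**Figure D3:**
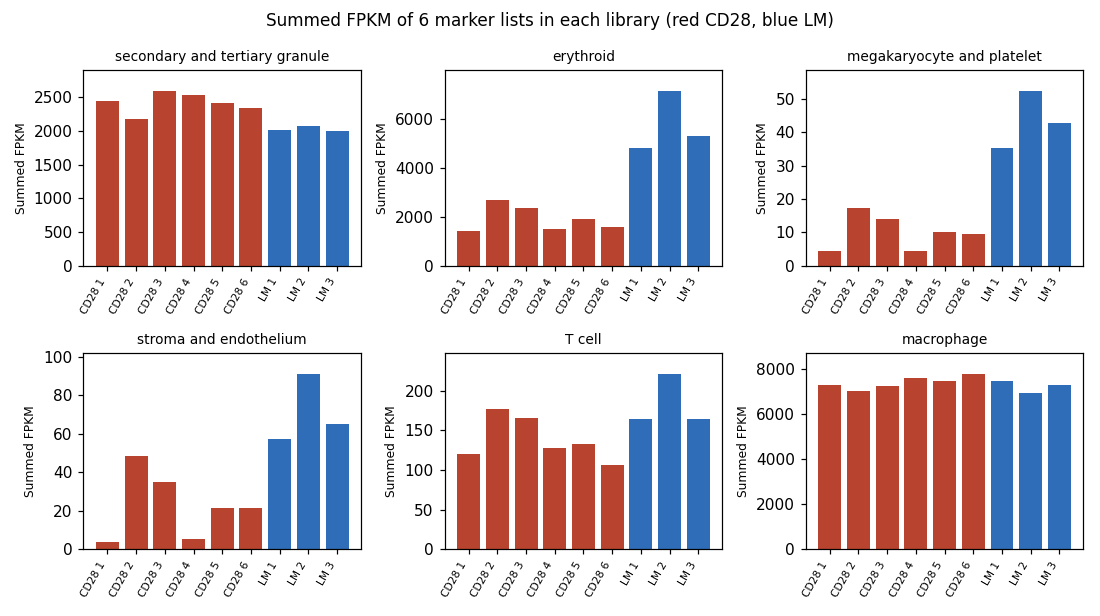
Summed FPKM of 6 marker lists in each library as bars from 0, with the 6 CD28 libraries in red left of the 3 LM libraries in blue. The granule sum is higher in every CD28 library, and Lyz2 holds most of the sum of secondary and tertiary granule genes. The erythroid, platelet and stroma sums are lower in every CD28 library. CD28 1 and CD28 4 have the lowest stroma and platelet sums. The macrophage sum overlaps, from 7007 to 7787 FPKM in CD28 and from 6954 to 7455 FPKM in LM. A sum follows its most abundant members, and the mean log2 level of the macrophage list is lower in every CD28 library.

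In the erythroid, platelet and stroma sums alike, CD28 2 and CD28 3 were the highest and CD28 1 and CD28 4 the lowest of the CD28 libraries. Summed granule genes of the secondary and tertiary list held 2184 to 2600 FPKM in CD28 and 2005 to 2076 FPKM in LM, with CD28 2 the lowest of the CD28 libraries. Most of this sum was Lyz2, which macrophages also express and which differed little between the groups. The mean log2 level over the tested members, in which each gene weighs the same, was 4.84 to 5.24 in CD28 and 4.41 to 4.58 in LM. The part of these cell type markers in the calls was not tested.

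The macrophage markers Csf1r and Adgre1 differed by less than the spread between libraries, and some markers of resident spleen macrophages had lower values in CD28. None of 19 tested members was called in limma (2 had an unadjusted p under 0.05 and a positive, 7 a negative log2 fold change), and the median was -0.10. Of the 19, 13 had a negative and 6 a positive log2 fold change. The mean log2 level over the tested members was 3.98 to 4.28 in CD28 and 4.36 to 4.48 in LM, without overlap. Csf1r (the M-CSF receptor) stood at 71.5 ± 1.72 FPKM (SD, n = 6) in CD28 and 71.8 ± 2.21 FPKM (SD, n = 3) in LM, and Adgre1 (F4/80) at 43.3 ± 1.49 FPKM (SD, n = 6) in CD28 and 42.6 ± 2.09 FPKM (SD, n = 3) in LM, with 95% intervals of the log2 fold change of -0.072 to 0.06 and -0.064 to 0.11. Marco, a scavenger receptor of marginal zone macrophages, was at 0.388, 0.697 and 2.29 FPKM in CD28 and 2.78, 4.51 and 3.51 FPKM in LM (adjusted p = 0.0831). Timd4, a receptor for phosphatidylserine on resident macrophages, was at 0.285, 1.24 and 2.52 FPKM in CD28 and 4.07, 6.22 and 4.59 FPKM in LM (adjusted p = 0.125), and Spic, the factor of red pulp macrophages, at 2.28, 3.16 and 3.89 FPKM in CD28 and 4.31, 6.14 and 5.1 FPKM in LM (adjusted p = 0.0828). CD28 and LM did not overlap in these 3 genes. Of the 19 members, 4 were lower and 1 was higher without overlap (3.79% and 2.5% of all genes were).

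**Figure D4:**
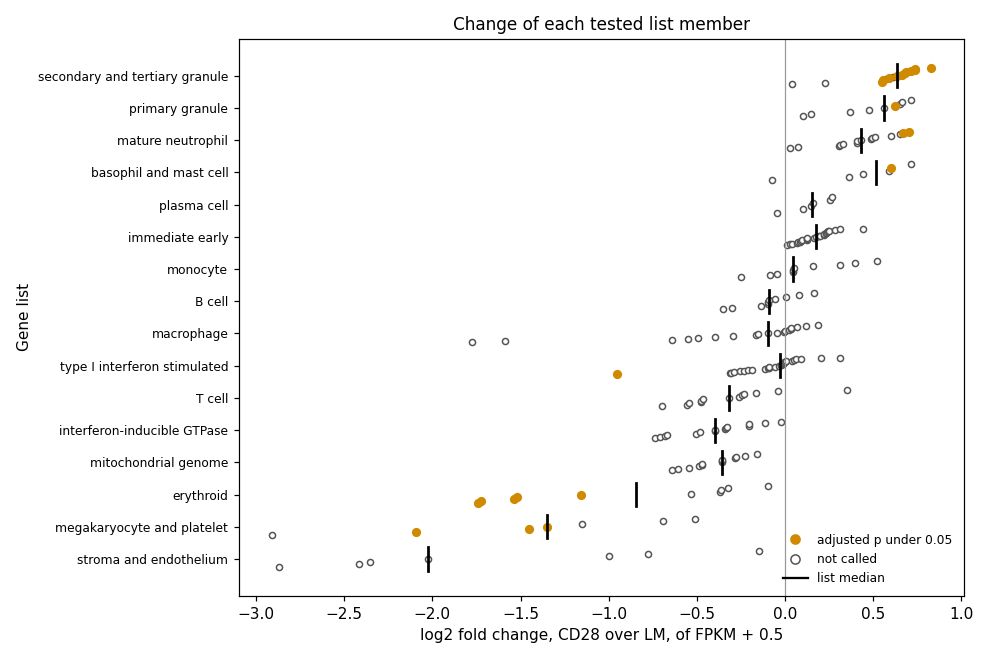
log2 fold change (CD28 over LM, of FPKM + 0.5) of each tested member of 16 gene lists, with called genes filled in orange, the others open and a black line at each list median. The medians of the granule, neutrophil and basophil lists lie right of 0 and those of the erythroid, platelet and stroma lists left of 0. Called members are in those lists, stroma excepted, and in the interferon list, where Rsad2 was called.

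Genes of T cells, on which CD28 acts, and of B cells gave no call. Of 13 tested T cell genes, 12 had a negative log2 fold change (median -0.32), 7 at an unadjusted p under 0.05. The 1 positive gene was Cd28. Of all 11120 genes, 772 were lower and 476 higher at that p. Cd3e stood at 6.93, 9.3 and 11.5 FPKM in CD28 and 12.6, 15.6 and 13 FPKM in LM (adjusted p = 0.158), and Cd8b1, a chain of the CD8 coreceptor, at 3.12, 3.58 and 5.24 FPKM in CD28 and 5.43, 8.06 and 6.14 FPKM in LM (adjusted p = 0.11). Cd4 overlapped between the groups, with a 95% interval of -0.55 to 0.085 for its log2 fold change. Of 10 B cell genes, 1 had an unadjusted p under 0.05. None of 9 NK and cytotoxic genes had an unadjusted p under 0.05. Without CD28 2, 1 gene of the T cell list, 2 of the macrophage list and 2 of the interferon-inducible GTPase list were called lower.

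Neither receptor gene of the pair passed the threshold. Cd28 measured 3.2, 3.86 and 4.61 FPKM in CD28 and 2.47, 3.33 and 3.07 FPKM in LM (log2 fold change 0.35, standard error 0.11, limma adjusted p = 0.232), with overlapping groups. Ctla4, the inhibitory receptor, measured 3.76, 4.28 and 4.81 FPKM in CD28 and 3.58, 3.6 and 3.14 FPKM in LM (log2 fold change 0.28, standard error 0.072, limma adjusted p = 0.155), with no overlap. The ligand Cd80 stood at 1.36 ± 0.181 FPKM (SD, n = 6) in CD28 and 1.51 ± 0.0941 FPKM (SD, n = 3) in LM, and Cd86 at 2.85 ± 0.63 FPKM (SD, n = 6) in CD28 and 3.51 ± 0.748 FPKM (SD, n = 3) in LM, with 95% intervals of -0.33 to 0.092 and -0.62 to 0.096. Icos, a related costimulatory receptor, had a log2 fold change of 0.047 that turned negative when CD28 4 or LM 3 was left out. None of the 13 tested genes of the CD28 and CTLA4 axis was called in limma. An unadjusted p under 0.05 was seen in 2 (in 1248 of all 11120 genes).

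The inflammatory cytokine list gave no call either. Of 17 tested inflammatory cytokines, 6 had an unadjusted p under 0.05, 4 higher and 2 lower in CD28. Of all 11120 genes, 476 were higher and 772 lower at that p. Ifng, the type 1 effector cytokine, was at 0.867, 1.36 and 1.81 FPKM in CD28 and 0.772, 0.978 and 0.734 FPKM in LM (log2 fold change 0.43, standard error 0.17, limma adjusted p = 0.364), with overlapping groups. Il1b was at 12.6, 16.5 and 18.4 FPKM in CD28 and 13.1, 13 and 9.88 FPKM in LM (adjusted p = 0.256), and Osm (oncostatin M) at 4.9, 6.43 and 6.99 FPKM in CD28 and 5.08, 4.57 and 4.09 FPKM in LM (adjusted p = 0.198). Tnf and Il10 had log2 fold changes of 0.037 and 0.083, with 95% intervals of -0.084 to 0.16 and -0.0048 to 0.17. Tgfb1 stood at 54.7 ± 0.847 FPKM (SD, n = 6) in CD28 and 56.4 ± 2.07 FPKM (SD, n = 3) in LM. Il4 and Il2 lay under the mean of 0.5 FPKM set for the test. Il4 stood at 0.0731, 0.103 and 0.134 FPKM in CD28 and 0.391, 0.211 and 0.305 FPKM in LM, and Il2 at 0.0568, 0.153 and 0.208 FPKM in CD28 and 0.0691, 0.0499 and 0.0395 FPKM in LM, levels at which no difference was tested, although the groups did not overlap for Il4. None of 15 tested members of the chemokine list was called, a list that leaves out the called genes Pf4, Ccl21b and Gm21541. Cxcl9, an interferon-gamma induced chemokine, was at 0.44, 0.826 and 1.3 FPKM in CD28 and 1.86, 2.96 and 1.68 FPKM in LM (adjusted p = 0.107), while Cxcl10 and Ccl3 had log2 fold changes of -0.14 and 0.036.

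**Figure D5:**
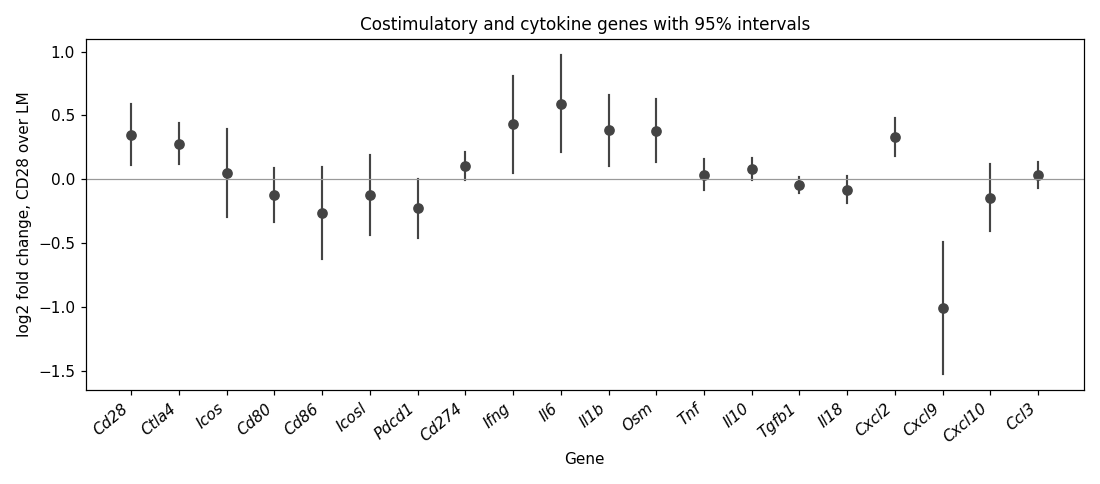
log2 fold change (CD28 over LM, of FPKM + 0.5) of 20 costimulatory, cytokine and chemokine genes, as points with 95% intervals from the fit as bars. Cxcl9 lies lowest and Il6 highest. The interval of Cxcl9 lies below 0, those of Cd28, Ctla4, Ifng, Il6, Il1b, Osm and Cxcl2 lie above 0, and none of the 20 passed the adjusted threshold.

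Interferon genes gave 1 called member of 28 in the type I list, a fall (0.27% of all genes fell). Rsad2 (ENSMUSG00000020641, chromosome 12 from 26442753 to 26456452 of mm10), the antiviral enzyme viperin, was at 2.91, 3.3 and 3.98 FPKM in CD28 and 6.03, 8.33 and 6.79 FPKM in LM (log2 fold change -0.95, standard error 0.11, limma adjusted p = 0.0223). It was not called without CD28 4, CD28 5 or LM 3, nor without CD28 1 and CD28 4 together (log2 fold change -0.91, adjusted p = 0.0707). Ube2l6, the conjugating enzyme for ISG15, also fell, with 16, 18 and 19.4 FPKM in CD28 and 23.4, 27.4 and 25.9 FPKM in LM (log2 fold change -0.50, standard error 0.066, limma adjusted p = 0.0223). Isg15 itself stood at 8.27, 9.96 and 10.4 FPKM in CD28 and 11.5, 12.3 and 12.8 FPKM in LM and was not called (adjusted p = 0.0845), and the list median was -0.03. All 15 interferon-inducible GTPases had a negative log2 fold change, with a median of -0.40. At an unadjusted p under 0.05 were 9 of them (772 of all 11120 genes were lower at that p). None was called, and Irgm1 and Igtp came nearest, at adjusted p of 0.0722 and 0.0899.

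Immediate early genes, which are transcribed within minutes of stimulation, all had a positive log2 fold change (25 of 25, median 0.18). At an unadjusted p under 0.05 were 14 of them (476 of all 11120 genes were higher at that p). None was called as deposited, but 2 were after scaling to equal sums, 1 with median-of-ratios scaling, 5 without CD28 6 and 1 without CD28 2. Fosb was at 28, 32.4 and 38.2 FPKM in CD28 and 23.4, 26.9 and 21.8 FPKM in LM (adjusted p = 0.0722) and Klf6 at 61.1, 65.8 and 66.9 FPKM in CD28 and 55.1, 57.8 and 53.1 FPKM in LM (adjusted p = 0.0577). The 13 protein-coding genes of the mitochondrial genome all had a negative log2 fold change and an unadjusted p under 0.05 (median -0.36). Of all 11120 genes, 772 were lower at that p. None of the 13 was called. mt-Co3, a subunit of cytochrome oxidase, was at 1477, 1549 and 1736 FPKM in CD28 and 1928, 2262 and 1889 FPKM in LM (adjusted p = 0.0577). After quantile normalization the median of these 13 was -0.11, and 6 of them were called without CD28 2.

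The remaining called genes belonged to other lists or to none. Dnajb9, a chaperone of the endoplasmic reticulum, was at 16.2, 16.8 and 17.9 FPKM in CD28 and 13.4, 14.1 and 14.7 FPKM in LM (log2 fold change 0.26, standard error 0.042, limma adjusted p = 0.036). It was the 1 gene called of 24 in the unfolded protein and integrated stress list (0.18% of all genes rose). Sass6, a protein of centriole assembly, was at 14.5, 15.8 and 19 FPKM in CD28 and 11.8, 10.3 and 10.9 FPKM in LM (log2 fold change 0.54, standard error 0.075, limma adjusted p = 0.0223). Ceacam1, an adhesion receptor, and Sik1, a salt-inducible kinase, rose by 0.46 and 0.43 on the log2 scale, and BC117090 rose by 0.69. Npy (neuropeptide Y) fell, with 0, 0.145 and 0.382 FPKM in CD28 and 1.96, 0.895 and 1.53 FPKM in LM (log2 fold change -1.52, standard error 0.22, limma adjusted p = 0.0243). Marcksl1, a MARCKS-like protein, fell by a small but even amount, with 33.4, 35.2 and 35.6 FPKM in CD28 and 40.3, 40.5 and 40.4 FPKM in LM (log2 fold change -0.22, standard error 0.03, limma adjusted p = 0.0223). Ctla2a, a cysteine protease inhibitor, fell, with 1.28, 1.94 and 2.8 FPKM in CD28 and 5.6, 7.43 and 5.76 FPKM in LM (log2 fold change -1.47, standard error 0.20, limma adjusted p = 0.0223), and Sdpr, which encodes the caveolar protein cavin-2, fell by 1.30 on the log2 scale. The log2 fold changes of Gpx1 (glutathione peroxidase 1), Glrx5 (a glutaredoxin of iron-sulfur cluster assembly), Mkrn1, Luc7l3, Cdr2, Prpf19, Tonsl and March2 lay between -0.63 and -0.21. Lists of lysosome, proteasome, DNA replication, cell cycle, glycolysis, cholesterol synthesis, hypoxia, oxidative stress, MHC class II and cytosolic ribosome genes had no called member, with medians between -0.10 and 0.05. Of the 79 cytosolic ribosome genes, 29 had an unadjusted p under 0.05 and a negative log2 fold change and 3 a positive one, and 28 were lower in CD28 with no overlap between the groups (3.79% of all genes were), with a median of -0.05.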

How the data were processed

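RNA of mouse spleen cells was sequenced by the authors on a NovaSeq instrument, and 1 table per sample was deposited with FPKM per gene, on the mm10 build per the labels. No aligner or quantifier is named in the sources used here, beyond GATK 4.2 in the submitters' processing notes. Each deposited table gives the same reads to assembled loci and again to 47729 reference genes. The assembled loci were left out, and rows of the same reference gene were summed. The authors' column headed TPM was treated as a score, since the assembled loci alone sum to 1000000, and was not used. The deposited coverage signal served only, through its ratio to FPKM, to give the depth of 5.99 to 7.59 gigabases per library. The tables hold no counts, so no counting intervals were computed.

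Protein-coding genes (GENCODE M21 types) whose mean over the 9 libraries reached 0.5 FPKM were tested, 11120 in all. limma 3.58.1 in R 4.3.3 was fitted to log2(FPKM + 0.5) on these 9 libraries alone, with a trend in the prior variance, and Benjamini-Hochberg adjustment was made over all tested genes. Fold changes are on the log2(FPKM + 0.5) scale, which understates changes of low genes. On simulated data for CD28 against LM with 11120 genes, the fit called 75 of 100 genes changed by 0.5 and 98 of 100 changed by 1 on the log2 scale, all with the right sign, and 11 unchanged genes. The simulated noise was independent for each gene and library, so differences shared by many genes of a library were left out. These counts therefore do not give the error rates in the real libraries. The protocol fields of the labels describe melanoma tumors and Trizol, while the study's methods describe splenocytes and a column kit.

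The members and the 52 gene lists were chosen with earlier results of these data known. Genes are named where they were among the 12 largest called rises or falls with no overlap and a mean of at least 1 FPKM, among the 4 members of a list with the lowest adjusted p, in the study's set, or among fixed costimulatory, cytokine and marker genes. Other members and called genes are named where their group is described, and a few are not reported here. Alternatives covered the pseudocount, the filter, the scaling, all 18 libraries, sample weights, other priors, a replicate block, parts of the CD28 group, all gene types and leaving out each library. Leaving out CD28 1 and CD28 4 together was added after the data were seen. Motifs were counted in 250-base windows from RefSeq (GRCm38.p6), for genes matched by symbol.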

Additional observations from a re-analysis of the deposited data

Results flagged for a closer look

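Among 80 levels checked in the 6 CD28 libraries (called genes, costimulatory, cytokine and marker genes, and cell type list scores), 1 had a library far from the others. The plasma cell list score, the mean of log2(FPKM + 0.5) over its tested genes, was 4.19 in CD28 6, against 4.35 to 4.43 in the other 5 CD28 libraries. The gap to its nearest neighbour was 0.682 of the range of the group, above Dixon's 95% limit for 6 values. Chance alone passes this limit in about 1 of 20 groups.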

How the results depend on the processing

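The count of called genes (50, 20 higher and 30 lower in CD28) moved with most choices. It was 75 (48 higher) after scaling to equal sums, 87 (44 and 43) after quantile normalization, 82 (40 higher) with sample weights and 136 (82 and 54) with all gene types. It was 25 (8 and 17) with no trend in the prior, 20 (3 and 17) with CD28 4 to 6 only, 2 (0 and 2) in the fit of all 18 libraries, and 0 (0 and 0) with CD28 1 to 3 only and without CD28 1 and CD28 4. With no filter on low values, 67 genes were called (7 higher, 60 lower), of which 25 were among the 50. Leaving out 1 library gave 1 to 119 calls, 1 to 45 of them higher and 0 to 74 lower. The same replicate numbers gave deviations from the group means that correlated at 0.167, 0.179 and -0.059, so the numbers were not taken to pair the libraries, and a replicate block over CD28 1 to 3 left 0 calls (0 higher and 0 lower). None of the 50 called genes changed sign in any alternative. As their groups did not overlap, only scaling to equal sums, median-of-ratios scaling or quantile normalization could have changed a sign. Genes near 0 changed sign without being called: Tgfb1 (0.0024 after scaling to equal sums), Cebpb, Gab2 and Cd44 (-0.013, -0.027 and -0.0076 with CD28 1 to 3, with or without the block) and Icos (-0.029 without CD28 1 and CD28 4, and between -0.10 and 0.21 with 1 library left out, negative without LM 3 or CD28 4). The cause of these moves was not tested. Without counts, values near 0 FPKM cannot be given an interval.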

Other observations

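Some lipid transport and complement genes outside the groups described so far gave no call in limma but had levels that did not overlap. Lower in CD28 without overlap were 3 of 12 tested cholesterol efflux and LXR target genes and 5 of 13 complement genes (3.79% of all genes were). In each of these 2 lists, 5 genes had a positive log2 fold change. Apoe, the apolipoprotein of macrophage cholesterol efflux, was at 21.8, 29.3 and 43.4 FPKM in CD28 (lowest, median and highest) and 55.9, 77.2 and 60.9 FPKM in LM (log2 fold change -1.01, standard error 0.20, limma adjusted p = 0.0689). Nr1h3, which encodes the sterol receptor LXR-alpha, was at 0.991, 1.38 and 1.49 FPKM in CD28 and 2.01, 2.55 and 1.76 FPKM in LM (limma adjusted p = 0.123). The complement genes C4b and Serping1 (C1 inhibitor) were at 0.17, 1.03 and 1.94 FPKM and 0.0832, 0.805 and 1.81 FPKM in CD28, and at 2.62, 4.13 and 2.8 FPKM and 2.18, 4.22 and 2.77 FPKM in LM. The stroma sums were also lower in every CD28 library, and their part in these genes was not tested.

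Some single genes jumped in 1 library or few. Mpc1, a mitochondrial pyruvate carrier, was at 2.31, 2.65 and 3.44 FPKM in CD28, against 3.73, 18 and 16.9 FPKM in LM 1 to 3. Tgfbr1, a TGF-beta receptor, was at 2.25, 2.87 and 3.22 FPKM in CD28, against 2.54, 3.13 and 0.836 FPKM in LM 1 to 3, with LM 3 low. Dhcr7, the last enzyme of cholesterol synthesis, was at 5.29, 5.41 and 8.75 FPKM in CD28, against 14.1, 8.31 and 16.2 FPKM in LM 1 to 3. These 3 were chosen after their values were seen, and none was called.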
